A study of Drosophila melanogaster with 6 samples.

Results

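Proteasome subunit genes were taken as all genes whose symbol starts with Prosalpha or Prosbeta, or with Rpn or Rpt followed by a digit. The rule found 46 of the 13682 genes in the authors' gene tables. Of these, 31 are constitutive subunits and 15 are paralogs whose symbol carries a T or R suffix, which are described apart. The constitutive genes comprise 6 of the alpha ring, 7 of the beta ring, 10 of the base and 8 of the lid.

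RNA was sequenced from dissected indirect flight muscle (IFM), which powers the wings, from dissected brain and from whole leg of Drosophila pupae at 72 h after puparium formation. All animals were w[1118], the white-eyed laboratory stock, raised at 27 °C, with no transgene and no treatment named, so the groups differ in tissue. Each tissue has 2 libraries, which the paper calls biological duplicates, and the p-values below measure the spread between these 6 libraries. Per the labels, mRNA of IFM was selected by GENEWIZ and that of brain and leg by LC Sciences, while the methods of the paper name LC Sciences throughout, so by the labels provider and tissue cannot be told apart in a comparison with IFM. The exon tables name the tissue but not the replicate number of the brain and leg libraries, which are called brain a, brain b, leg a and leg b here.

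The proteasome is the large protease of the cytoplasm and nucleus that degrades proteins marked with ubiquitin chains. Its barrel-shaped core particle has outer alpha rings, which gate the entry, and inner beta rings, which carry the proteolytic sites. The regulatory particle caps the barrel. Its base holds the Rpt ATPases, which unfold substrates, and its lid holds Rpn11, which removes the ubiquitin chain. In muscle the proteasome is known for the turnover of contractile proteins, and Drosophila carries extra subunit genes that are used in the male germ line.

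Levels are the authors' exon bin counts summed per gene and given as counts per 1000000 after TMM scaling (CPM), and levels between genes are compared as CPM per kilobase of exon. The libraries hold between 67091219 and 177964590 exon bin counts, where a read over several bins counts in each. TMM factors ran from 0.599 to 1.70. In the marker lists, 8 muscle genes summed to 278866 and 398453 CPM in IFM, to at most 13785 in brain and to at most 124687 in leg. Mhc alone held 114945 and 187468 CPM in IFM. Over leg, 4 of the 8 were called higher in IFM and 1, Mf, lower, beside 29.8 and 27.6 percent of all genes. The 6 measured neuron genes summed to at least 4469 CPM in brain and to at most 635 elsewhere. The 6 markers of epidermis and cuticle summed to 2302 and 2118 CPM in leg and to at most 503 elsewhere. The 5 measured markers of fat body and blood cells summed to 1056 and 863 CPM in IFM and to at most 393 elsewhere, of which the fat body genes Fbp1, Lsp1alpha and Lsp2 were called higher in IFM than in leg and brain. The blood cell marker NimC1 was lower in IFM than in leg, by a log2 fold change of −3.20 (adjusted p = 0.000511, edgeR), and Hml, another one, was not called. The part of these cells in the differences below was not tested. In such bulk libraries, fewer cells of a type and less RNA per cell cannot be told apart.

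All 31 constitutive subunits were detected in every library, and with TMM scaling their summed levels in IFM and brain overlapped. The sum was 1771 and 1774 CPM in IFM, 1469 and 1786 CPM in brain and 1429 and 1586 CPM in leg. The brain range contains the IFM values, and both leg libraries lie below both IFM libraries. With total counts as the only scaling, the median log2 fold change of the subunits was −1.15 in IFM over brain and 0.91 in brain over leg, so this overlap rests on TMM. The median subunit stood at 39.3 CPM per kilobase in IFM, 37.9 in brain and 36.9 in leg.

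Prosbeta5, the subunit with the chymotrypsin-like site, had the highest level per kilobase of all constitutive subunits in each tissue. It stood at 84.7 ± 6.13 CPM per kilobase in IFM, 66.98 ± 14.5 in brain and 73.5 ± 7.51 in leg (SD, n = 2). Rpn1, a base scaffold that receives ubiquitin-binding shuttle proteins, was lowest in IFM with 18.3 ± 2.90 and in leg with 19.6 ± 1.83 CPM per kilobase. Prosbeta3, a non-catalytic subunit of the beta ring, was lowest in brain with 18.6 ± 2.80. From lowest to highest, the levels spanned 4.62-fold in IFM, 3.60-fold in brain and 3.75-fold in leg. The ends of this order were close to their neighbours: Prosbeta1 followed Prosbeta5 in IFM with 84.4 CPM per kilobase, and Rpn8 preceded Rpn1 with 22.4. The order of the 31 levels was alike in brain and leg, with a Spearman rho of 0.83, less so in IFM and leg (0.64) and least in IFM and brain (0.35). These values describe 31 genes in 1 set of libraries and carry no test.

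**Figure D1:**
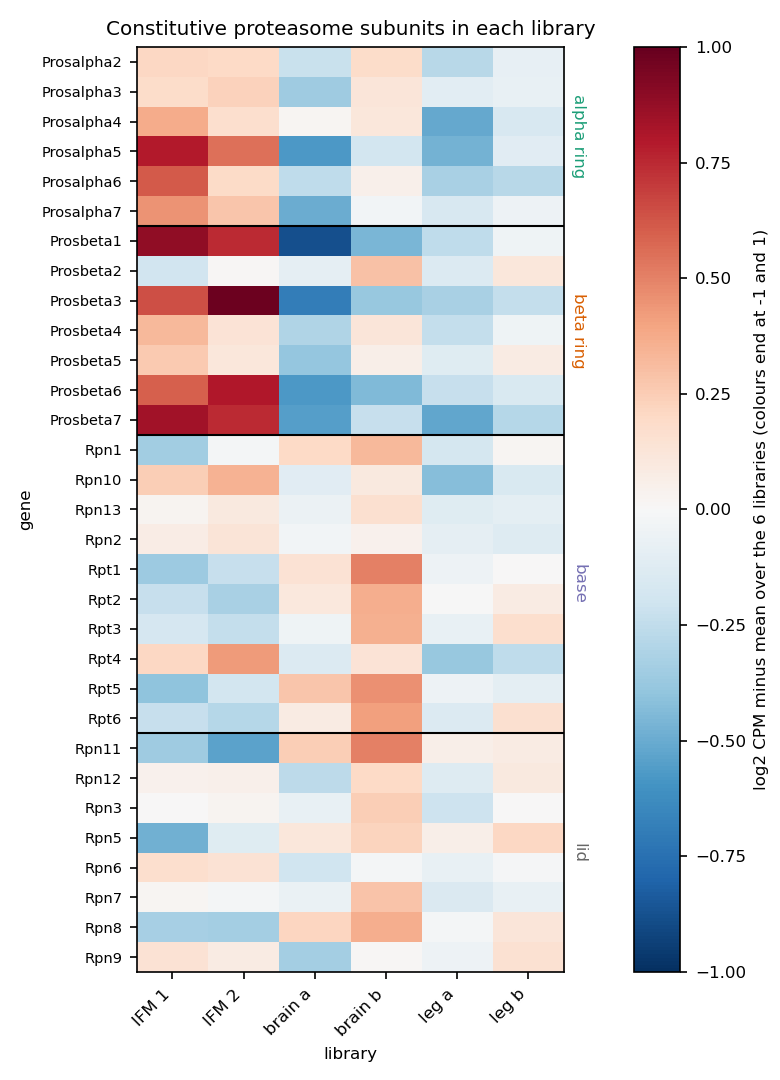
Log2 CPM of the 31 constitutive subunits (rows, by subcomplex) in the 6 libraries (columns), minus each gene's mean over the libraries. Prosbeta1, Prosbeta3, Prosbeta6 and Prosbeta7 are red in both IFM libraries and blue in both brain libraries, and most Rpt genes show the opposite.

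IFM and leg, a fibrillar muscle and an organ with tubular muscle, were compared first. In edgeR's quasi-likelihood test with Benjamini-Hochberg adjustment over 12345 genes, 9 of 31 constitutive subunits were higher in IFM and 2 were lower, while 29.8 percent of all genes were called higher and 27.6 percent lower. The share called higher is near this background. Genes higher in IFM were Prosalpha4, Prosalpha5, Prosalpha6, Prosbeta1, Prosbeta3, Prosbeta6, Prosbeta7, Rpn10 and Rpt4, and those lower were Rpn8 and Rpn11. The median log2 fold change of the subunits was 0.20, beside 0.082 over all genes. In the core particle 7 of 13 subunits were higher and 0 lower, and in the regulatory particle 2 of 18 were higher and 2 lower. With the length correction described below, these counts were 5 and 1 in the core and 4 and 4 in the regulatory particle, and the difference between the particles was not tested. Of all 31 subunits, DESeq2 called 13 higher and 1 lower in IFM than in leg, beside 34.3 and 27.8 percent of all genes (62.2 in either direction).

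In IFM against brain, 6 constitutive subunits were higher and 7 lower, beside 33.1 and 33.5 percent of all genes. The 6 higher genes all belong to the core particle: Prosalpha5, Prosalpha7, Prosbeta1, Prosbeta3, Prosbeta6 and Prosbeta7. The 7 lower genes all belong to the regulatory particle: the ATPases Rpt1, Rpt2, Rpt5 and Rpt6 and the lid subunits Rpn5, Rpn8 and Rpn11. This split by particle did not hold with DESeq2 or the length correction. DESeq2 called 10 core and 5 regulatory subunits higher and 5 regulatory subunits lower, beside 38.0 and 32.0 percent of all genes (70.1 in either direction), and the length correction gave 4 core and 2 regulatory subunits higher and 2 core and 10 regulatory subunits lower. The median was 0.20, beside −0.014 over all genes, and the members thus differed in opposite directions. In brain against leg, edgeR called 0 of 31 subunits, 2 had an unadjusted p under 0.05, and the median was 0.12, while 22.6 percent of all genes were called higher and 20.9 percent lower. DESeq2 called 1 higher, Rpt5, and 2 lower, Prosbeta1 and Prosbeta6, in this comparison, beside 24.2 and 26.1 percent of all genes (50.3 in either direction). Both brain libraries lay above both leg libraries in 13 subunits and below them in 3, while 39.0 and 34.3 percent of all genes did so.

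**Figure D2:**
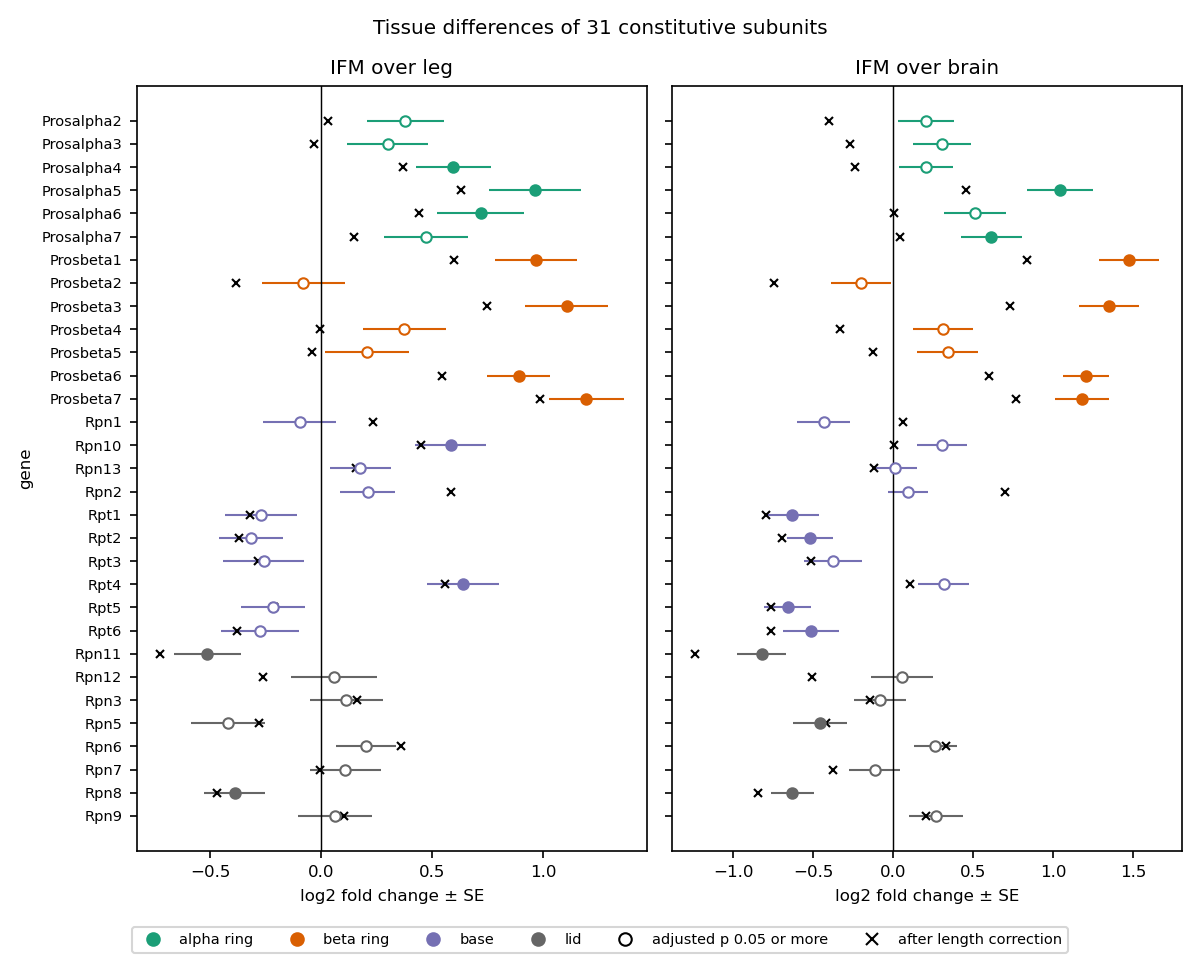
Log2 fold change with its standard error (x axis) for each of the 31 constitutive subunits (y axis), coloured by subcomplex, in IFM over leg and IFM over brain. Filled points have an adjusted p under 0.05 in edgeR's quasi-likelihood test, and crosses give the value after the length correction. Of the beta ring, Prosbeta1, Prosbeta3, Prosbeta6 and Prosbeta7 lie farthest to the right in IFM over brain, with Prosbeta1 at 1.47, while Prosbeta2 lies left of 0, and Rpn11 lies farthest to the left at −0.82.

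Scaling sets these directions in part. With total counts as the only scaling, the median of all genes moved by −0.57 in IFM over leg, by −1.35 in IFM over brain and by 0.78 in brain over leg. The subunits moved with it, to 2 higher and 10 lower, 0 higher and 26 lower, and 29 higher and 0 lower, while 20.6 percent of all genes were higher and 41.1 lower, 18.6 and 57.1 (75.7 in either direction), and 44.4 and 11.2. Upper quartile scaling moved the median of all genes by 0.25, 0.44 and −0.18 and gave 16 higher and 0 lower, 18 higher and 0 lower, and 0 higher and 2 lower subunits, beside 34.8 and 22.3, 40.9 and 25.6, and 18.8 and 24.6 percent of all genes. Relative to the median of all genes, the median of the subunits stayed between 0.12 and 0.22 for both comparisons with IFM under TMM, total count and upper quartile scaling. It turned to −0.065 over leg and −0.22 over brain with the length correction, and fell to 0.053 over leg without leg a and to 0.049 over brain without brain a. The median of the core subunits exceeded that of the regulatory subunits by 0.62 against leg and 0.76 against brain. Under these scalings it was 0.61 to 0.63 and 0.75 to 0.77, but a shift common to all genes hardly moves such a difference. It was 0.48 and 0.40 with the length correction, 0.45 and 0.54 without IFM library 1, and 0.78 and 0.91 without IFM library 2.

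The balance between core and regulatory particle differed between the tissues. Core subunits summed to 785 and 744 CPM in IFM, 432 and 556 in brain, while leg had 470 and 536. Regulatory subunits summed to 986 and 1030 CPM in IFM, 1037 and 1230 in brain and, for leg, 959 and 1050. The ratio of both sums was 0.796 and 0.722 in the IFM libraries, 0.417 and 0.452 in brain, with 0.490 and 0.510 for leg. Every IFM library was above every brain and leg library, and every leg library above every brain library. The mean ratio came to 0.759 ± 0.0521 for IFM, 0.435 ± 0.0249 for brain and 0.500 ± 0.0142 for leg (SD, n = 2), a difference of 1.75-fold between IFM and brain and of 1.52-fold between IFM and leg. An exact two-sided permutation test gave p = 0.333 for each pair of tissues (n = 2), which is the smallest value that 2 against 2 libraries allow. The ratio was chosen after the values were seen.

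**Figure D3:**
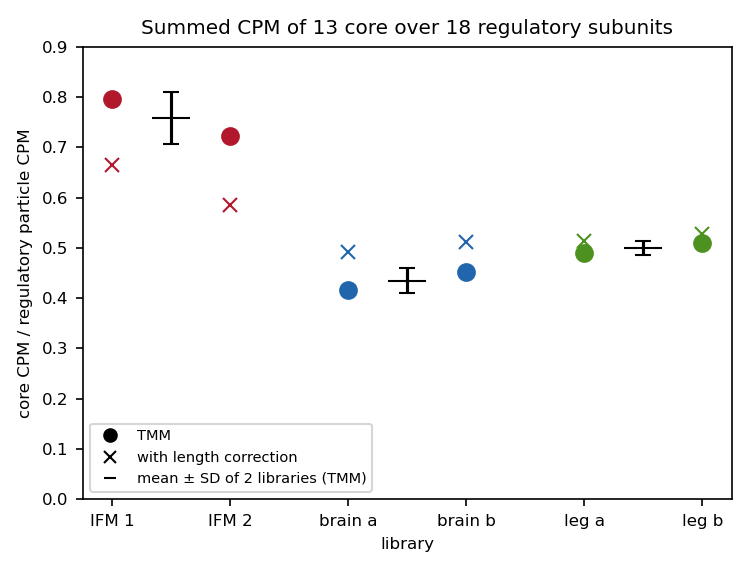
Summed CPM of the 13 core subunits divided by that of the 18 regulatory subunits (y axis) in each library (x axis). Dots are values after TMM scaling, crosses those with the length correction, and bars the mean with SD of 2 libraries. The IFM libraries sit at 0.796 and 0.722, above the other 4 libraries, which reach at most 0.510.

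Exon length moved with this balance. Core genes span 815 to 1215 bp of exon bins with a median of 973, and regulatory genes 995 to 3412 bp with a median of 1534. Among 10066 genes with a mean of at least 1 CPM, the median log2 fold change of IFM over brain was 0.65 for genes of 700 to 1000 bp, 0.17 for those of 1300 to 1600 bp and −0.70 for those above 3000 bp. In IFM over leg the same classes had medians of 0.46, 0.15 and −0.38. Short genes in general were thus higher in IFM, and subunits were set against this trend in an alternative that was added after the data were seen. With a lowess curve on length removed from each library, the ratio was 0.666 and 0.586 in IFM, 0.491 and 0.512 in brain, while leg had 0.514 and 0.527. The IFM libraries were still above the other 4, and the difference was 1.25-fold to brain and 1.20-fold to leg. With this correction 9 subunits were called higher and 5 lower against leg, where 31.8 and 26.4 percent of all genes were (58.2 in either direction). Against brain, 6 were higher and 12 lower, beside 35.1 and 32.8 percent (67.9 in all). In brain over leg, 9 were higher and 0 lower, beside 24.6 and 22.4 percent (47.0 in all), so the correction made calls there that the uncorrected test did not. The part of length in the remaining difference was not tested.

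**Figure D4:**
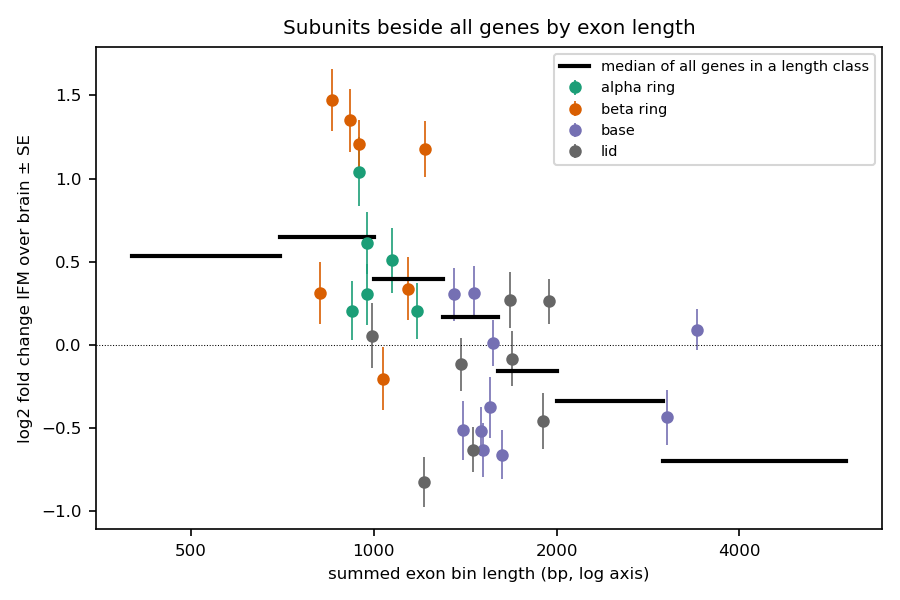
Log2 fold change of IFM over brain with its standard error (y axis) against the summed exon bin length (x axis, log scale) for the 31 constitutive subunits, coloured by subcomplex. Black lines give the median of all genes in each length class, which falls from 0.65 at 700 to 1000 bp to −0.70 above 3000 bp. Prosbeta1, Prosbeta3, Prosbeta6 and Prosbeta7 lie above the line of their class, and Rpn11 and the lower Rpt genes lie below it.

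With TMM scaling, the measured alpha ring genes had higher levels in IFM, and 3 of 6 passed the test against leg and 2 of 6 against brain, where 29.8 and 33.1 percent of all genes were called higher. The count against brain is at this background. With total counts as the only scaling, all 6 differences over brain turned negative, with −1.14 for Prosalpha4, −0.31 for Prosalpha5 and −0.74 for Prosalpha7. Both IFM libraries lay above both leg libraries, and above both brain libraries, in 6 of 6 alpha genes, while 42.8 percent of all genes did so against leg and 42.4 percent against brain. Prosalpha5 had the largest difference of the ring, with 74.2 and 62.6 CPM in IFM, 28.8 and 37.7 in brain and, for leg, 30.7 and 39.6. IFM did not overlap the other tissues. It was 1.95-fold higher in IFM than in leg (log2 0.96 ± 0.21 SE, adjusted p = 0.00937, edgeR) and 2.06-fold higher than in brain (adjusted p = 0.0053). The call against brain was lost with the length correction, at a log2 fold change of 0.45 (adjusted p = 0.0595, edgeR). Prosalpha4 had 49.3 and 42.7 CPM in IFM, 38.7 and 41.1 in brain, with 26.8 and 34.1 for leg, so that leg was low and IFM was only slightly above brain. Brain exceeded leg by 0.39 ± 0.17 on the log2 scale, among the 3 largest differences of that comparison, and did not pass the test (adjusted p = 0.111, edgeR). Prosalpha2, Prosalpha3, Prosalpha6 and Prosalpha7 had log2 fold changes of 0.38, 0.30, 0.72 and 0.47 against leg and of 0.21, 0.30, 0.51 and 0.61 against brain, of which Prosalpha6 passed against leg and Prosalpha7 against brain. Without IFM library 1 the calls of Prosalpha4 and Prosalpha6 against leg and of Prosalpha7 against brain were lost, as were those of Prosalpha4 without leg a, of Prosalpha6 without either leg library and of Prosalpha7 without brain a. With the length correction 1 alpha gene, Prosalpha5, was called higher against leg and 0 against brain, where Prosalpha2 was called lower at −0.40 (adjusted p = 0.0313, edgeR).

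The beta ring held the largest differences, but not in all its members. Prosbeta1, which carries the caspase-like site, lies on chromosome 2R from 16013805 to 16014787 and has 3 exons. It had 75.5 and 68.3 CPM in IFM, 22.2 and 29.7 in brain, while leg had 34.1 and 39.5. The 3 tissues did not overlap, with IFM highest and brain lowest. IFM was 2.77-fold above brain (log2 1.47 ± 0.19 SE, adjusted p = 0.000796, edgeR) and 1.95-fold above leg (log2 0.97 ± 0.19, adjusted p = 0.00612). Brain was below leg by a log2 fold change of −0.50 ± 0.18, which did not pass (adjusted p = 0.0693, edgeR).

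Prosbeta3, Prosbeta6 and Prosbeta7 are subunits without a proteolytic site of their own that complete the beta ring. Prosbeta3, on chromosome 3R from 9005313 to 9006226 with a single exon, had 38.4 and 48.4 CPM in IFM, 15.2 and 18.8 in brain and, for leg, 19.6 and 20.8. It was 2.55-fold above brain (log2 1.35 ± 0.19 SE, adjusted p = 0.00116, edgeR) and 2.15-fold above leg (log2 1.104 ± 0.19, adjusted p = 0.00373). Its only bin overlaps an exon of CG11980 on the other strand, and whether the exon counts used strand is not given in the sources used here, so reads of both genes may not be told apart. CG11980 itself had 35.1 and 29.1 CPM in IFM, 25.5 and 29.0 in brain, with 15.5 and 19.0 for leg.

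Prosbeta6, on chromosome 3L from 16609400 to 16610418, had 52.8 and 60.7 CPM in IFM, 23.5 and 25.7 in brain, while leg had 29.8 and 31.5. It was 2.31-fold above brain (log2 1.21 ± 0.14 SE, adjusted p = 0.000584, edgeR) and 1.85-fold above leg. Prosbeta7, on chromosome 3R from 5357012 to 5358364, had 96.8 and 90.9 CPM in IFM, 36.9 and 46.0 in brain and, for leg, 37.7 and 44.4. Brain and leg overlapped, and IFM was far above both. It was 2.28-fold above leg (log2 1.19 ± 0.17 SE, adjusted p = 0.00179, edgeR), the largest difference of a constitutive subunit in that comparison, and 2.26-fold above brain.

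These 4 beta genes kept their calls after the length correction, with log2 fold changes of 0.84, 0.73, 0.60 and 0.77 over brain and of 0.60, 0.74, 0.54 and 0.98 over leg in the order Prosbeta1, Prosbeta3, Prosbeta6 and Prosbeta7. They kept them without any 1 library and with every other setting that could be fitted except total counts. With total counts, whose median over all genes moved by −1.35, the values over brain were 0.12, −0.017, −0.15 and −0.17 in the same order, so that 3 of the 4 turned sign, and the calls were lost. Over leg, total counts also ended the calls of Prosbeta1 and Prosbeta6, at 0.40 and 0.31, while Prosbeta3 and Prosbeta7 kept theirs.

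The catalytic subunits did not move together. Prosbeta2, which carries the trypsin-like site and lies on chromosome 3L from 14999951 to 15001319, had 36.0 and 41.6 CPM in IFM, 38.8 and 50.4 in brain, with 37.5 and 44.6 for leg. The ranges overlapped in all pairs of tissues, and the log2 fold changes of −0.082 ± 0.19 over leg and −0.20 ± 0.19 over brain did not pass (adjusted p = 0.726 and 0.369, edgeR). With the length correction it was called lower in IFM, at −0.39 over leg and −0.74 over brain (adjusted p = 0.0426 and 0.00305, edgeR). Prosbeta5, on chromosome 2R from 10819978 to 10821178, had 101 and 91.6 CPM in IFM, 64.6 and 88.0 in brain, while leg had 77.6 and 89.7. IFM was above the other libraries by a narrow margin. Log2 fold changes of 0.21 ± 0.19 over leg and 0.34 ± 0.19 over brain did not pass (adjusted p = 0.388 and 0.158, edgeR). Over brain, the value turned to −1.01 with total counts and to −0.12 with the length correction. DESeq2 called Prosbeta5 higher over brain, at 0.52 (adjusted p = 0.0246), and did not call it over leg, at 0.30. Prosbeta4, the remaining beta subunit, had log2 fold changes of 0.37 over leg and 0.31 over brain and was not called by edgeR. DESeq2 called it over brain, at 0.49 (adjusted p = 0.0391), and not over leg.

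In the base, 4 of 6 ATPase genes were called lower in IFM than in brain, beside 33.5 percent of all genes. The 6 Rpt proteins form the ring that unfolds substrates. Both IFM libraries lay below both brain libraries, and below both leg libraries, in 5 of 6 Rpt genes, beside 43.5 and 39.6 percent of all genes. Rpt5, on chromosome 3R from 23752876 to 23754623, had 37.7 and 44.0 CPM in IFM, 60.5 and 68.5 in brain and, for leg, 48.3 and 46.7. Brain was high, leg lay between, and IFM was low without overlap. Its level in IFM was 0.633 times that in brain (log2 −0.66 ± 0.15 SE, adjusted p = 0.00813, edgeR), and brain over leg came close to the threshold with 0.44 ± 0.15 (adjusted p = 0.0508). Rpt1, Rpt2 and Rpt6 were lower by −0.63, −0.52 and −0.51 over brain, and Rpt3 by −0.37 without passing (adjusted p = 0.112, edgeR). Under upper quartile scaling these 4 calls were lost, with log2 fold changes between −0.21 and −0.070. Without IFM library 1 or brain b all 4 were lost too, and those of Rpt1 and Rpt2 also without IFM library 2 or leg a, while Rpt6 lost its call without any 1 of the 6 libraries.

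Rpt4 was the exception among the ATPases. It had 80.1 and 93.6 CPM in IFM, 63.3 and 76.3 in brain, with 53.5 and 58.2 for leg. IFM was higher than leg by 0.64 ± 0.16 (adjusted p = 0.0166, edgeR) and higher than brain by 0.32 ± 0.16, which did not pass (adjusted p = 0.126). Of the other base subunits, Rpn10, a receptor for ubiquitin chains, was higher than in leg by 0.58 ± 0.16 (adjusted p = 0.0217, edgeR). Both calls were lost without IFM library 2 and without leg a, and that of Rpt4 also without leg b. Rpn13, a further ubiquitin receptor, and the scaffolds Rpn1 and Rpn2 had log2 fold changes between −0.44 and 0.21 in both comparisons with IFM, and none passed. Rpn1 had 49.5 and 62.0 CPM in IFM, 72.1 and 78.6 in brain, while leg had 55.7 and 63.6. For Rpn2 and Rpn1, the longest subunit genes, the length correction moved IFM over brain from 0.093 to 0.70, which was called, and from −0.44 to 0.058.

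The lid showed the largest decreases. Rpn11, the metalloprotease that cuts ubiquitin chains from substrates, lies on chromosome 2L from 5058404 to 5059790. It had 32.1 and 28.4 CPM in IFM, 48.7 and 58.3 in brain and, for leg, 42.7 and 43.6. IFM was low without overlap, and brain was highest. Its level in IFM was 0.565 times that in brain (log2 −0.82 ± 0.15 SE, adjusted p = 0.00391, edgeR) and 0.701 times that in leg (log2 −0.51 ± 0.15, adjusted p = 0.0282). Rpn8, the inactive partner of Rpn11, had 32.7 and 32.6 CPM in IFM, 47.8 and 53.2 in brain, with 40.6 and 44.9 for leg. It was lower than in brain by −0.63 ± 0.14 (adjusted p = 0.00728, edgeR) and than in leg by −0.39 ± 0.14 (adjusted p = 0.0475). The Rpn11 difference to brain was called under all alternatives except upper quartile scaling, where it was −0.38. The Rpn11 difference to leg was lost without either IFM or either leg library, the Rpn8 difference to leg without any 1 of the 6 libraries, and the Rpn8 difference to brain without IFM library 2 or brain b.

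Rpn5, a scaffold of the lid, had 47.4 and 61.0 CPM in IFM, 71.6 and 77.3 in brain, while leg had 68.9 and 76.2, and its call against brain at −0.46 (adjusted p = 0.0491, edgeR) was kept under 5 of 14 alternatives, among them without IFM library 2, and lost without any other 1 library. The other lid genes, Rpn3, Rpn6, Rpn7, Rpn9 and Rpn12, had log2 fold changes between −0.12 and 0.27 in both comparisons with IFM and did not pass.

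Prosalpha1, the remaining alpha gene, is not in the gene tables and so is no member. It and its near copy Prosalpha1R lie side by side on chromosome 2R, from 7827303 to 7828678 and from 7830413 to 7831771. Their bins held 795 and 794 counts in IFM library 1 and 1107 and 1096 in IFM library 2, and 276 each in leg a, so counts of both cannot be told apart and are uncertain.

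Most paralogs were found almost only in the IFM libraries. Of the 15 paralogs, 14 had exon bin counts, and all 14 passed the filter of 50 counts over the 6 libraries, and IFM held most of the counts of each. In Drosophila, several of them encode subunit forms of the testis. Against leg 12 of 14 were called higher and against brain 11 of 14, beside the 29.8 and 33.1 percent of all genes given above, and 0 were lower. The filter favours genes that are high somewhere, so these counts describe the paralogs and are no support of their own.

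Among the alpha paralogs, Prosalpha4T2 had 7.47 and 3.39 CPM in IFM, 0.124 and 0.0262 in brain and, for leg, 0.361 and 0.0132. Prosalpha6T had 6.06 and 2.94 in IFM, 0.0266 and 0.0350 in brain, with 0.764 and 0.0132 for leg. IFM was high in both genes, and leg a was well above leg b. Prosalpha3T had 1.85 and 0.591 in IFM, at most 0.0525 in brain and at most 0.132 in leg. Prosalpha4T1 had 1.82 and 0.845 in IFM, 0.763 and 0.315 in brain, while leg had 0.111 and 0.0927. Prosalpha4T1 also had counts in brain, where it was 5.24-fold higher than in leg (adjusted p = 0.0478, edgeR) and did not differ past the threshold between IFM and brain (adjusted p = 0.148). The call of brain over leg was kept under 6 of 14 alternatives, and brain b was the single library without which it held.

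Among the beta paralogs, Prosbeta5R1, a relative of the chymotrypsin-like subunit on chromosome 2R from 23308654 to 23309816, was highest of all with 10.3 and 3.43 CPM in IFM. It had 0.151 and 0 in brain and, for leg, 0.0278 and 0.0530. It was 164-fold higher than in leg (log2 7.35 ± 1.55 SE, adjusted p = 0.00852, edgeR), where 6 counts were seen in both libraries together. Per kilobase it reached 10.5 percent of the level of Prosbeta5 in IFM library 1 and 3.85 percent in IFM library 2, and at most 0.240 percent in the other libraries. Prosbeta5R2 had 2.21 and 1.13 CPM in IFM and at most 0.111 elsewhere, Prosbeta2R1 had 3.18 and 1.58 and at most 0.105 elsewhere, and Prosbeta2R2 had 2.38 and 1.87 and at most 0.167 elsewhere. Prosbeta4R1 had 0.909 and 0.516 CPM in IFM, 0.124 and 0.0175 in brain and 0 in both leg libraries. It was at least 35.0-fold higher in IFM than in leg, set against 3 counts over both leg libraries. Prosbeta4R2 has no exon bins here, and the authors' mean of its normalized counts was 78.1 in the table of IFM and leg, 96.8 in that of IFM and brain and 4.25 in that of brain and leg.

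Among the paralogs of the regulatory particle, Rpt6R had 5.42 and 3.08 CPM in IFM, 0.746 and 0.875 in brain, with 0.333 and 0.530 for leg. Rpt3R had 4.35 and 2.64 in IFM, 0.213 and 0.472 in brain, while leg had 0.208 and 0.132. These 2 genes had counts in every library, and IFM exceeded leg by 9.81-fold for Rpt6R (adjusted p = 0.00285, edgeR) and by 20.4-fold for Rpt3R (adjusted p = 0.00269). Rpt4R had 2.12 and 1.89 CPM in IFM, 0.488 and 0.621 in brain and, for leg, 0.0278 and 0. Its level in brain was above that in leg (log2 5.21 ± 0.98 SE, adjusted p = 0.00645, edgeR) and was not past the threshold against IFM (adjusted p = 0.0603). With 2 counts in leg, the ratio of IFM to leg was 148 with a 95 percent counting interval of 40.9 to 1220.5. Rpn12R had 4.97 and 2.31 CPM in IFM, 0.0355 and 0 in brain and 0 in both leg libraries, which is at least 179-fold higher in IFM than in leg set against 3 counts. Rpn13R had 3.05 and 1.20 CPM in IFM and at most 0.0355 elsewhere.

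**Figure D5:**
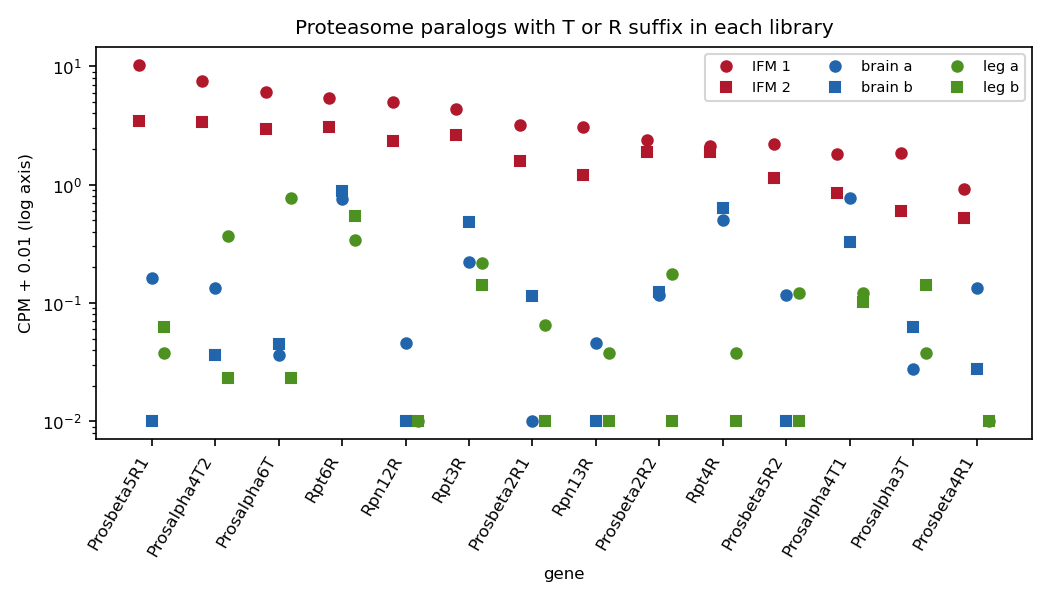
CPM plus 0.01 (y axis, log scale) of the 14 measured T and R paralogs (x axis) in each library, with circles for the first and squares for the second library of a tissue. Red IFM points lie above all others for each gene, and IFM library 1 lies above IFM library 2, from 10.3 against 3.43 CPM for Prosbeta5R1 to 0.909 against 0.516 for Prosbeta4R1.

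The paralogs were higher in 1 of the IFM libraries. The sum of the 14 paralogs was 56.1 and 27.4 CPM in IFM, 2.94 and 2.63 in brain, with 2.22 and 0.967 for leg. All 14 were higher in IFM library 1 than in IFM library 2, with a median ratio of 2.04, while the constitutive subunits had a median ratio of 1.01. Without either IFM library, fewer paralogs were called higher against leg and against brain than with all 6 libraries, and so were fewer of all genes. Against brain, this was also so without either brain library. With any 1 library left out, the lowest log2 fold change of a paralog was 2.55 over leg (Prosalpha6T) and 0.78 over brain (Prosalpha4T1).

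Markers of sperm and testis moved with the paralogs. Of 29 such genes, 26 were called higher in IFM than in leg and 26 higher than in brain, where 29.8 and 33.1 percent of all genes were, and 0 were lower, beside 27.6 and 33.5 percent. Their summed level was 2481 and 1089 CPM in IFM, 415 and 244 in brain, while leg had 267 and 93.0, and the part of bol, which brain and leg also expressed, was 354, 349, 388, 231, 192 and 86.4 CPM in the same order. S-Lap1, a sperm leucyl aminopeptidase, had 384 and 126 CPM in IFM, 5.48 and 2.74 in brain and, for leg, 13.5 and 1.11. The germ line tubulin betaTub85D had 109 and 42.5 CPM in IFM and at most 3.15 elsewhere. Of these markers 27 of 29 were higher in IFM library 1 than in IFM library 2, with a median ratio of 2.51, and 23 of 29 were higher in leg a than in leg b, as were 9 of 14 paralogs. The part of such RNA in the levels of the paralogs was not tested.

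Exon use was compared next, as the level of an exon bin relative to its gene. Of 104 tested bins in 27 constitutive genes, 5 were called between IFM and leg, 7 between IFM and brain and 0 between brain and leg by edgeR's diffSpliceDGE, beside 3.85, 7.0 and 4.15 percent of all bins. Against leg 3 had higher and 2 lower use in IFM (1.65 and 2.21 percent of all bins), and against brain 1 had higher and 6 lower use (2.86 and 4.15 percent). In brain over leg 2.36 percent of all bins had higher and 1.80 percent lower use. In brain against leg 2 member bins had an unadjusted p under 0.05. Over leg, over brain and in brain over leg, limma called 6, 19 and 0 subunit bins, beside 5.83, 10.8 and 5.31 percent of all bins. In 17 bins of 7 paralogs 0 were called in any comparison, with 0 at an unadjusted p under 0.05. Outside IFM these paralogs held few counts per tissue, from 2 for Rpt4R in leg to 184 for Rpt6R in brain. A difference of use could hardly be called there.

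Prosbeta7 had a called bin with counts in IFM only. Its 5′-most bin, on chromosome 3R from 5358176 to 5358364, is 5′ UTR of 1 of its 2 annotated transcripts. It held 58 of 6388 counts of the gene in IFM library 1 and 26 of 9683 in IFM library 2, which is 0.908 and 0.269 percent. It held 0 counts in the 4 brain and leg libraries, of 2716 to 5261 counts, which allows a share of up to 0.110 percent in the least covered library, leg a. The difference was called against leg (adjusted p = 0.0114, edgeR) and against brain (adjusted p = 0.0028). The call against brain was kept in all 8 alternatives that could be fitted, and that against leg was lost with limma and without either leg library.

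Most other called bins had lower use in IFM and lay at or near the 5′ end. A 5′ UTR bin of Rpn2, on chromosome 3R from 29153609 to 29153695, held 0.641 and 0.475 percent of the counts of the gene in IFM, 1.87 and 2.38 percent in brain and 2.71 and 0.760 percent in leg. It was called with log2 changes of use of −1.95 against brain and −1.65 against leg (adjusted p = 0.00447 and 0.0422, edgeR), and leg a was far above leg b. Both calls were lost without either IFM library and without brain b, and that against leg also without brain a or leg a. The first bin of Prosalpha3, on chromosome 2R from 20994900 to 20994993, held 8.50 and 9.20 percent in IFM, 19.5 and 18.1 in brain, with 16.3 and 16.8 for leg, at a log2 change of −1.07 against brain (adjusted p = 0.0193, edgeR). This call was kept in 3 of 9 alternatives and was lost without either IFM or either brain library, without leg b and in the fit of the 4 libraries. In Rpn13, a 5′ UTR bin on chromosome 2R from 13960327 to 13960404 held 12 and 30 counts in IFM, 12 and 21 in brain, while leg had 2 and 1, a small number behind a call of 3.26 against leg (adjusted p = 0.0454, edgeR). The called 3′ UTR bin of Rpn9, higher in IFM than in leg, overlaps an exon of CG10365, and its counts may be shared with that gene. The calls of the Rpn13 and Rpn9 bins were lost with limma and without IFM library 1, brain b or either leg library.

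Of the 7 bins called between IFM and brain, 6 were the 5′-most of the bins kept here for their gene. Of these 6, 5 had lower use in IFM. For Rpn10 and Rpn3 the called bin was E002, so an earlier bin of these genes is not among those kept. Lower use of the 5′-most kept bin in IFM was also seen across genes. In 6309 genes with at least 2 bins and 200 counts in each library, the median share of counts in the 5′-most bin was 6.41 and 6.34 percent in IFM, 9.05 and 8.65 in brain and, for leg, 8.59 and 8.56. In the 27 constitutive subunits it was 9.08 and 9.65 percent in IFM, 15.5 and 14.0 in brain, with 15.1 and 15.2 for leg. Both IFM libraries lay below the other 4 libraries in 19 of 27 subunits, and in 47.8 percent of all these genes. At the 3′ end, the last bin held 40.2 and 39.4 percent in IFM and between 31.6 and 32.7 percent in the other libraries. Coverage along the transcript thus moved with the tissue, and its part in the exon calls of the subunits was not tested. Calls were also few without single libraries: between 0 and 3 member bins against leg and between 0 and 5 against brain.

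Reads over introns that the annotation lacks, which fortuna counts as unannotated events, were few in these genes. In total 67 listed events fell in 26 members, 22 of them constitutive and 4 paralogs, and 50 of the events were exon skipping. The tables list 5 intervals under 2 event types with the same reads, and counted once the events are 62 intervals with 3337 reads. Libraries of the event tables carry replicate numbers, and reads are given in that order. In all, 4 intervals reached 150 reads in IFM, and 0 did so in brain or leg. With each interval counted once, the constitutive subunits had 77.1 event reads for every 10000 exon bin counts of these genes in IFM, 15.04 in brain and 17.6 in leg. Over all genes the same rate stood at 188 for IFM, 97.1 for brain and 69.8 for leg, so IFM was highest in both.

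Prosbeta5 held the most read interval, on chromosome 2R from 10819998 to 10820282, which the tables list both as exon skipping and as alternative donor with the same 289 reads. IFM held 54 and 99 of these reads, brain 5 and 57 and leg 42 and 32, with no call in any comparison. A skipping event of Prosbeta4, on chromosome 2L from 16731577 to 16731943, was read 74 and 77 times in IFM, against 39 and 17 in brain and, for leg, 3 and 15. An event of Rpn6, on chromosome 2R from 14750716 to 14751145, had 44 and 73, 18 and 10, and 21 and 7 reads. Neither was called in any comparison.

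The skipping event of Prosbeta7, on chromosome 3R from 5357283 to 5357924, was called in both comparisons with IFM, as were events of other subunits. It was read 59 and 110 times in IFM, against 4 and 4 in brain and 2 and 2 in leg, and IFM was higher by a log2 fold change of 3.82 ± 0.74 SE over leg (adjusted p = 0.00318, edgeR) and of 3.32 ± 0.67 over brain (adjusted p = 0.00201). For every 10000 exon counts of Prosbeta7 such reads numbered 105 for IFM, 8.49 for brain and 6.59 for leg, a wider gap than that of its expression. This was not particular to Prosbeta7. In the same order, the rates were 81.9, 2.52 and 1.21 for a skipping event of Rpt4 and 147, 6.63 and 11.5 for one of Prosalpha2. Of 26 listed member events with at least 50 reads (24 intervals), 6 were called higher in IFM than in leg, 11 higher than in brain and 0 lower. Of all tested events, 24.7 and 33.3 percent were called higher and 18 and 30.2 percent lower, or 42.7 and 63.5 percent in either direction. The filter favours events that are high in IFM, which held most event reads, so these counts are no support of their own. The same holds for the events of Prosbeta7, Rpt4 and Prosalpha2, which passed the filter through IFM. An interval of Prosalpha5 with 0 reads in IFM and 37 in all was below the filter. Without single libraries the counts ran from 4 to 8 against leg and from 4 to 11 against brain. Between brain and leg 0 were called by edgeR, and between 0 and 2 when single libraries were left out, while 34.8 percent of all events were called. An alternative acceptor in Rpt6, on chromosome X from 21316403 to 21317341, had 32 and 53 reads in IFM and 0 in all 4 other libraries (adjusted p = 0.00709 over leg and 0.00263 over brain, edgeR). It was chosen after its values were seen and passed the filter through IFM alone, so its p-values are no support of their own.

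Other genes of the ubiquitin and proteasome pathway were counted from a list of 28, of which 26 were measured. In IFM over leg 13 were higher and 4 lower, where 29.8 and 27.6 percent of all genes were, with a median log2 fold change of 0.56. In IFM over brain 11 were higher and 7 lower, beside 33.1 and 33.5 percent of all genes, with a median of 0.41. In brain over leg 6 were higher and 1 lower, beside 22.6 and 20.9 percent. The counts over brain are near this background. These counts and the values below are given with TMM scaling only, without the length correction. With total counts the median of all genes moved by −1.35 over brain and −0.57 over leg. Pomp, the chaperone that matures the core particle, had 103 and 100 CPM in IFM, 49.99 and 57.4 in brain, while leg had 59.3 and 65.4. It was higher in IFM by 0.92 over brain and 0.71 over leg (adjusted p = 0.00175 and 0.00696, edgeR). Ubi-p63E, a polyubiquitin gene, had 675 and 719 CPM in IFM, 206 and 249 in brain and, for leg, 291 and 274, higher in IFM by 1.62 over brain and 1.30 over leg, whereas Ubi-p5E, another polyubiquitin gene, was highest in brain with 715 and 670 CPM, beside 247 and 387 in IFM and 166 and 210 in leg. Npl4, a cofactor of the segregase TER94, and Uch, a ubiquitin hydrolase, were higher in IFM by 1.62 and 1.61 over brain. Lower in IFM than in brain and leg were STUB1, a chaperone-linked ubiquitin ligase, Keap1 and maf-S, which act on or with the transcription factor cnc, and rngo, a ubiquitin receptor. For cnc, the fly relative of the factor that raises proteasome genes in mammals, the log2 fold changes of −0.26 and 0.41 in IFM over leg and brain did not pass.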

How the data were processed

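RNA-seq of IFM, brain and leg (2 libraries each) was used. The submitters' processing notes name BDGP6 as build, and STAR 2.7.3a, SAMtools 1.1, featureCounts of Subread 2.0.0 and DESeq2 1.32.0 as tools. The deposited exon tables hold raw counts per exon bin and library. The tool behind these counts and its strand setting are not given in the sources used here. The deposited event tables of the authors hold raw read counts per unannotated event from fortuna, summed here over both read ends. The deposited gene tables hold a mean normalized signal, used for Prosbeta4R2 and to list the members. The fold changes and p-values in the gene and exon tables are the authors' own comparisons and were not used. The number of columns of samples outside the series was 0.

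Of 64266 exon bins listed, 63255 had counts for all 6 libraries, and 1011 were left out. Bins were summed per gene. Genes, bins and events with at least 50 counts over the 6 libraries were tested with edgeR 4.0.16 in R 4.3.3 (TMM, glmQLFit, glmQLFTest, and diffSpliceDGE for exon use, all libraries in 1 fit, tissue only, Benjamini-Hochberg over all features, threshold 0.05). This took in 12345 genes, 60339 bins and 16595 events. Fold changes are log2 values. DEXSeq was not used here. Alternatives were DESeq2 1.42.0, limma 3.58.1, total count and upper quartile scaling, scaling to the subunits, other filters, the 4 libraries of a pair and leaving out each library. Bins free of other genes' exons and the length correction (lowess) were added after the data were seen. The tests were also run on simulated counts with a fixed spread and changes planted in IFM for a small part of the features. This does not check the scaling, on which many calls depend. Tables were made with Python 3.11.15, pandas 2.3.3, numpy 2.4.6 and scipy 1.17.1, figures with matplotlib 3.10.9.

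The members and gene lists were chosen with earlier results of these data known. Values in every library are given for the catalytic subunits, for the 3 constitutive members with the largest fold change per comparison, for the highest and lowest per kilobase and for each paralog with at least 10 counts in a library, besides up to 3 bins per comparison and the 5 most read events. Other genes given in full were chosen after their values were seen. Gene positions are from the Ensembl annotation of BDGP6, inside which the bins of 12322 of 12332 annotated genes lie. Protein and promoter sequences were not analysed here. Counting intervals and limits leave out amplification, since the reads carry no molecular identifiers.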

Additional observations from a re-analysis of the deposited data

How the results depend on the processing

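TMM scaling against total counts moved the subunits most. With total counts alone, 2 constitutive subunits were higher and 10 lower in IFM over leg (median −0.37), 0 and 26 in IFM over brain (median −1.15), and 29 were higher in brain over leg (median 0.91). Under it 12, 18 and 9 of 31 subunits turned sign in IFM over leg, IFM over brain and brain over leg, among them Prosalpha4 (−1.14), Prosbeta3 (−0.017), Prosbeta5 (−1.01), Prosbeta6 (−0.15) and Prosbeta7 (−0.17) in IFM over brain, and Prosbeta1 (0.28), Prosbeta3 (0.54), Prosbeta5 (0.66) and Prosbeta6 (0.46) in brain over leg. Upper quartile scaling gave 16 and 0 over leg (median 0.45), 18 and 0 over brain (median 0.65) and 2 lower in brain over leg (median −0.075). Of all calls, 51.9, 49.7 and 51.9 percent were higher in the first tissue with TMM in IFM over leg, IFM over brain and brain over leg, beside 33.4, 24.5 and 79.8 with total counts and 60.9, 61.5 and 43.2 with upper quartile scaling. These shifts follow from the scaling itself. Scaling to the subunits makes their sum equal in all libraries, so the balance of their calls was set in advance. It gave 5 higher and 7 lower over leg (median −0.034), 6 and 9 over brain (median 0.072) and 1 lower in brain over leg. Of 12345 genes, 2912 were higher and 3806 lower over leg, 3696 and 4284 over brain, and 2292 and 2650 in brain over leg. DESeq2 gave 13 higher and 1 lower over leg, 15 and 5 over brain, and 1 and 2 in brain over leg. Of all genes it called 34.3 percent higher and 27.8 lower over leg, 38.0 and 32.0 over brain, and 24.2 and 26.1 in brain over leg. Fits of the 4 libraries of a pair gave 10 higher and 1 lower over leg, beside 3478 and 3062 of 11914 genes. Over brain they gave 6 higher and 4 lower, beside 4133 and 3889 of 12131 genes.

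Added after the data were seen, bins free of other genes' exons gave 8 higher and 4 lower over leg, beside 3311 and 3034 of 11239 genes. Over brain they gave 5 and 7, beside 3697 and 3698 genes, and in brain over leg 1 and 0, beside 2508 and 2309. The core to regulatory ratio in leg was then 0.463. The length correction, also added, gave 9 higher and 5 lower over leg, beside 31.8 and 26.4 percent of all genes. Over brain it gave 6 higher and 12 lower (median −0.14), beside 35.1 and 32.8 percent. In brain over leg 9 were higher and 0 lower, beside 24.6 and 22.4 percent. Its core to regulatory ratios were 0.626, 0.502 and 0.520 in IFM, brain and leg. With the widest bin of each gene only, brain and leg both had a subunit median of 30.6 CPM per kilobase, while IFM had 38.5. Core to regulatory ratios from these bins averaged 1.31 (IFM), 0.675 (brain) and 0.806 (leg). IFM thus exceeded brain 1.93-fold and leg 1.62-fold. Apart from the scalings, the cause was not tested. Of the named genes' log2 fold changes, 45 values that passed the threshold neither with TMM nor under the alternative changed sign, 22 of them without a single library and 23 under another setting.

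limma called 3519 and 6532 exon bins over leg and brain, and 19 subunit bins over brain. Pair fits called 2 and 4 subunit bins. With at least 10 reads, 10 member events were called over leg, where 6 were with at least 50 reads. Over brain, 17291 of all events were called, where 10534 were with at least 50 reads. These member and all-event counts come from different comparisons and carry no share of the tested events, so they cannot be set beside each other.

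Leaving out single libraries, in the order IFM over leg, IFM over brain and brain over leg, gave 5 to 10, 5 to 13 and 0 to 0 subunits higher and 0 to 1, 1 to 5 and 0 to 1 lower, with medians of 0.19 to 0.23, 0.16 to 0.43 and −0.11 to 0.23. Genes called ran from 5444 to 6604, 6449 to 8087 and 3815 to 5450, exon bins from 1348 to 1997, 2417 to 4282 and 1488 to 2650, subunit bins from 0 to 3, 0 to 5 and 0 to 0, events from 3551 to 7156, 6517 to 10659 and 3282 to 5127, and member events from 4 to 8, 4 to 11 and 0 to 2. Core ratios ran from 0.722 to 0.796 in IFM, 0.417 to 0.452 in brain and 0.490 to 0.510 in leg. A lone library was taken to vary like the other tissues.

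Replicate numbers did not pair the event libraries, since differences between same-numbered libraries correlated by 0.01149, 0.01244 and 0.02357 for IFM with brain, IFM with leg and brain with leg. With a replicate block 6583, 9996 and 5570 events and 6, 8 and 0 member events were called. No paired analysis was possible because the brain and leg columns of the exon tables carry no replicate number, which holds for the gene and exon tests. Protein and promoter features were not run. Low counts limited the paralogs outside IFM, where several libraries held 0 counts.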
